A study of Mus musculus with 170 samples.

Results

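CD8 memory T cells sorted from the spleens of old mice, aged 22 to 24 months, were compared with those from young mice, aged 2 months, over all genes. The comparison used the 6 libraries labelled CD8 memory among the 170 of the series, 3 old (replicates 1, 2 and 3) and 3 young (replicates 2, 3 and 4). Both ages had a C57/Bl6 background, no other allele or agent is given in the labels, and both were sorted by flow cytometry. Each library pooled the tissue of 5 healthy animals, so p-values measure the spread between pools, and the gates of the sort are not given in the sources used here. Sequencing read the 3' ends of polyadenylated RNA, with 1301782 to 2301826 counts in each of the 6 libraries.

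CD8 T cells recognise peptides on MHC class I molecules and kill infected or transformed cells with granzymes and perforin or through Fas ligand. Cells that have met antigen persist as memory cells with raised CD44, and central memory cells among them recirculate through lymphoid organs. Virtual memory cells are a related population that takes on a memory phenotype without foreign antigen. In mouse spleen, CD8 T cells that carry granzyme K, PD-1 and TOX are known to accumulate with age.

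Levels are normalised counts (CPM), scaled to a common library size and given for old replicates 1, 2 and 3 and then for young replicates 2, 3 and 4. The genes that mark the sorted cells were present in every library. Cd8a, which encodes the alpha chain of the CD8 co-receptor, had 565, 295 and 441 CPM in old libraries, against 203, 114 and 247 CPM in young libraries. Cd44, the adhesion receptor of memory cells, had 166, 282 and 246 CPM in old libraries, against 334, 436 and 289 CPM in young libraries. Neither gene passed the test (Cd8a log2 difference 1.20 ± 0.32, SE, adjusted p = 0.103, and Cd44 -0.61 ± 0.25, adjusted p = 0.252), although old and young libraries did not overlap. The CD4 co-receptor gene Cd4 stood at 15.3, 17.1 and 11.9 CPM in old libraries and 17.4, 18.4 and 24.2 CPM in young libraries.

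Marker genes of other blood cells were also counted, with macrophage, NK and erythroid markers higher in young libraries and neutrophil markers highest in an old one. The 8 CD8 T cell markers were Cd8a, Cd8b1, Cd3e, Cd3d, Cd3g, Cd2, Thy1 and Cd44, and apart from Cd8a and Cd8b1 other T cells share them. They summed to 5971, 3109 and 5182 CPM in old libraries, against 2469, 1864 and 2769 CPM in young libraries. The 12 macrophage and monocyte markers summed to 607, 3643 and 1369 CPM in old libraries, against 8242, 11971 and 4671 CPM in young libraries. Natural killer (NK) cell markers summed to 410, 338 and 378 CPM in old libraries, against 2173, 2639 and 1043 CPM in young libraries. These 3 lists separated the ages without overlap, and so did the erythroid list, at 4343, 12248 and 3287 CPM in old libraries, against 17780, 32648 and 38641 CPM in young libraries. Sums of plasmacytoid dendritic cell markers were also lower in old libraries without overlap (146 to 467 CPM against 471 to 581 CPM). The same held for CD4 and regulatory T cell markers and for endothelial and stromal markers. Old replicate 2 stood apart from its group, with 17776 CPM of neutrophil markers, against 756 and 1573 CPM in the other old libraries and 582 to 880 CPM in young libraries, and 14.7% of its counts were immunoglobulin, against 0.617% to 4.94% elsewhere. Other young spleen T cell sorts of the series held more of the CD8 T cell list than the young CD8 memory libraries. It summed to 5933 to 7286 CPM in virtual memory, 6301 to 8096 CPM in naive and 3705 to 4604 CPM in CD4 memory libraries. Dendritic cell markers summed to 3453 to 4940 CPM in young CD8 memory libraries, above the CD8 T cell sum in each. They summed to 95.1 to 230 CPM in young virtual memory and 2893 to 9003 CPM in young CD4 memory libraries. Il17a, Gp1bb, Treml1, Rag2 and Adipoq had no count in any of the 6 libraries. In pooled libraries, fewer cells of a type and less RNA per cell cannot be told apart, and the part that these other RNAs played in the results below was not tested.

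**Figure D1:**
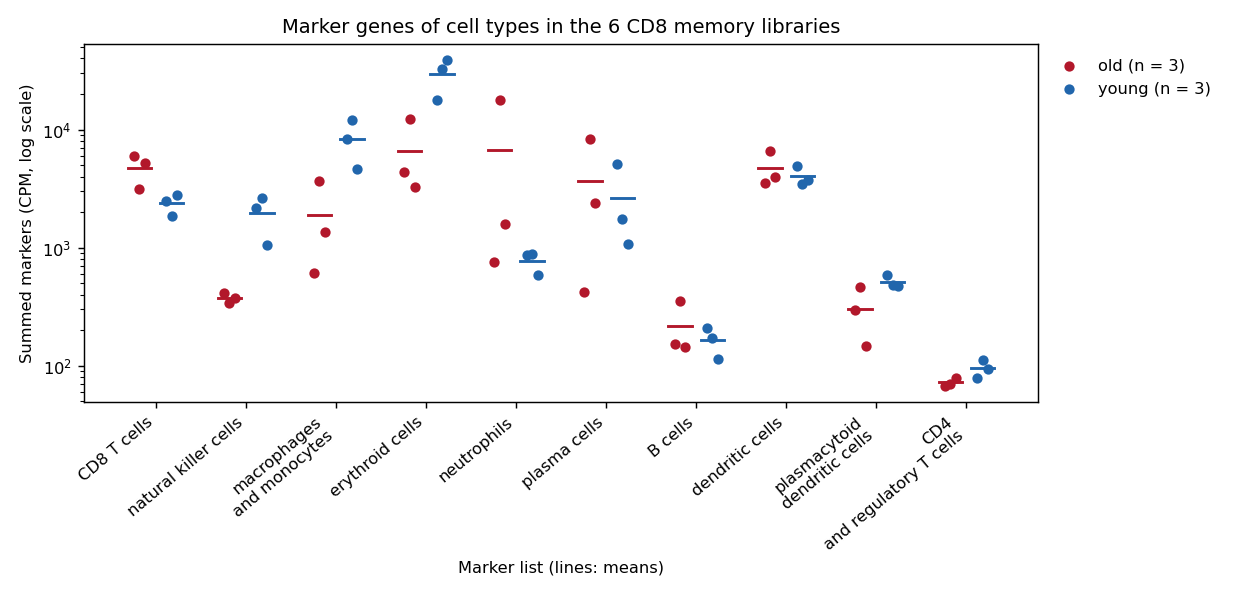
Summed normalised counts (CPM, log axis) of marker lists in the 3 old (red, left) and 3 young (blue, right) CD8 memory libraries, with points for libraries and lines for means. Macrophage, NK and erythroid markers lay lower and CD8 T cell markers higher in the old libraries, and old replicate 2 held 17776 CPM of neutrophil markers.

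Because the RNA of other cells differed between the ages, results within CD8 memory cells are given on 2 scales. The first is the usual scaling over all genes (TMM). The second, chosen after seeing the data, scales each library to the summed counts of the CD3 and CD8 genes Cd3d, Cd3e, Cd3g, Cd8a and Cd8b1. These made up 0.477%, 0.201% and 0.392% of counts in old libraries, against 0.188%, 0.117% and 0.213% in young libraries. On this T cell scale the median log2 difference of all genes was -1.12, against 0.02 with TMM. A change of scale moves all genes of a library together. The distance of a list from the median of all genes therefore stays nearly the same by construction, and is no second test of it. T cell genes outside the scale did not all stay level on it. Per 100 counts of the scaling genes there were 9.32 ± 0.23 Cd2 counts in old libraries and 10.5 ± 1.03 in young libraries, and 10.2 ± 1.09 Thy1 counts in old libraries and 11.3 ± 0.64 in young libraries (SD, n = 3 each). The receptor constant genes spread more, with 116 ± 79.5 Trac counts in old libraries and 54.1 ± 20.9 in young libraries, and 19.9 ± 3.26 Trbc1 counts in old libraries and 27.9 ± 3.60 in young libraries. Trbc2 had 41.1 ± 6.38 counts in old libraries and 48.1 ± 3.09 in young libraries.

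Old CD8 memory cells had 49 genes higher than young cells, 0.46% of the 10645 tested, and 68 lower, 0.639%, so that 1.1% differed in either direction. The genes that were higher included granzyme K (Gzmk), the inhibitory receptor PD-1 (Pdcd1), the transcription factors Tox and Eomes, the chemokine gene Ccl5 and the survival gene Bcl2. Those that were lower included 8 of the 12 macrophage markers, 4 of the 8 NK markers tested and Dapl1, a gene of resting T cells. Without old replicate 2, 274 genes were higher (2.45% of 11206) and 604 lower (5.39%), with all 117 of the calls above among them. Of the 6 omissions of a single library, this one gave the most calls. On the T cell scale 11 genes were higher (0.103%) and 1659 lower (15.6%), and 78 of the 117 calls were retained. Calls also rested on single libraries. Leaving out young replicate 2 left 1 higher and 2 lower genes, and leaving out young replicate 3 left 2 of each. Of the 46 genes named below that passed, 2 still passed without young replicate 2, 3 without young replicate 3 and 26 without young replicate 4, and 22, 46 and 18 without old replicates 1, 2 and 3, each in an unchanged direction.

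Granzyme K had the clearest difference among cytotoxic genes. Gzmk (chr13:113171608-113225908, GRCm38), a serine protease of cytotoxic granules, had 611, 214 and 340 CPM in old libraries, against 29.2, 22.3 and 41.1 CPM in young libraries. The lowest old library lay well above the highest young library, and the log2 difference was 3.66 ± 0.41 (adjusted p = 0.00628). Per 100 counts of CD3 and CD8 genes there were 12.7, 9.03 and 8.14 Gzmk counts in old libraries, against 1.66, 1.91 and 2.02 in young libraries. The difference also passed on the T cell scale (2.42 ± 0.47, adjusted p = 0.00691). It missed the threshold without young replicate 2 (adjusted p = 0.0543) or young replicate 3 (0.0569).

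The promoters of Gzmk, Pdcd1 and Eomes are shown because these T cell genes passed the test in the same direction. Promoters were looked up for 5 such genes, also Tox and Ccl5, and 3 were found. Each runs from 250 bases before to 50 bases after the RefSeq start of the gene on GRCm38.p6, 5′ to 3′ along the gene. Capitals mark matches, on either strand, to GGTGTG (T-box factors), TGTGGT (RUNX), TGANTCA (AP-1), CTTTGA (TCF and LEF) or TGGAAA (NFAT).
Gzmk promoter, chr13:113180916-113181215, minus strand: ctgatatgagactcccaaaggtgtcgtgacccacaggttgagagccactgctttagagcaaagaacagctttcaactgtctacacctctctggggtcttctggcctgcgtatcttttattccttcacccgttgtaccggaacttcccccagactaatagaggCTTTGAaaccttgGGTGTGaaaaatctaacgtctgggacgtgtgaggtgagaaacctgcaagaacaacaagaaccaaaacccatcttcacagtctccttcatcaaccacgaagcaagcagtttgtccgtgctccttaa
Pdcd1 promoter, chr1:94052504-94052803, minus strand: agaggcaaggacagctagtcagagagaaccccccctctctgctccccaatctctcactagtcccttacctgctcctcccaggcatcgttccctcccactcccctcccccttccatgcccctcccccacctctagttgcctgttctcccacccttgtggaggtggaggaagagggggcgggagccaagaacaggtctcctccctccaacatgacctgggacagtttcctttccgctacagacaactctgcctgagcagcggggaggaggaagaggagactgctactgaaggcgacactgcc
Eomes promoter, chr9:118477939-118478238, plus strand: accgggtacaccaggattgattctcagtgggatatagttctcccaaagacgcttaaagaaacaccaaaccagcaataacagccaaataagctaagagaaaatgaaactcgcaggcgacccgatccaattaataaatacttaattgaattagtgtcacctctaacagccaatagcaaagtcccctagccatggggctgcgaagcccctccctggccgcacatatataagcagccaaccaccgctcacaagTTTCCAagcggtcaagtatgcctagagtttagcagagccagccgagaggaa
The Gzmk promoter held one T-box match and one TCF and LEF match on the strand of the gene, beginning 75 and 88 bases before the start. The Eomes promoter held one NFAT match on the opposite strand, and the Pdcd1 promoter held none of these letters. Among 32851 promoters of the same length, 19% held the T-box letters, 16.8% the RUNX, 7.81% the AP-1, 16% the TCF and LEF and 21.4% the NFAT letters, so a match is common and describes the sequence alone.

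Of the 17 cytotoxic granule and death ligand genes tested, 4 rose and 1 fell, with a median log2 difference of 0.60. This median lay 0.58 above that of all genes with TMM and 0.51 above it on the T cell scale. On the latter scale the list median itself was -0.61, with 1 member higher and 3 lower. Nkg7, a granule membrane protein needed for release, had 4092, 1767 and 2718 CPM in old libraries, against 931, 766 and 914 CPM in young libraries (log2 difference 1.72 ± 0.30, adjusted p = 0.0372). Cst7, which encodes cystatin F, an inhibitor of the proteases that activate granzymes, averaged 202 ± 92.1 CPM in old and 59.3 ± 11.2 CPM in young libraries (SD, n = 3 each, adjusted p = 0.0451). Fas ligand (Fasl), a death ligand, averaged 84.8 ± 22.0 CPM in old and 25.7 ± 6.46 CPM in young libraries (adjusted p = 0.0339). Old and young libraries did not overlap for these 3 genes, but on the T cell scale their differences were 0.45 to 0.52 and did not pass. The gene that fell with TMM, Slc11a1, encodes a metal transporter of phagocytes. Slc11a1 stood at 10.9, 11.9 and 7.12 CPM in old libraries, against 42.7, 51.9 and 24.9 CPM in young libraries. It moved with the macrophage markers.

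The other granzymes and perforin did not pass. Gzma, granzyme A, had 226, 71.6 and 153 CPM in old libraries, against 976, 1033 and 334 CPM in young libraries. Its libraries did not overlap, with a log2 difference of -2.38 ± 0.49 and an adjusted p of 0.0587, and NK cells are a known source of this granzyme. On the T cell scale Gzma fell by 3.81 on the log2 scale (adjusted p = 0.00214). Gzmb averaged 89.1 ± 34.1 CPM in old and 63.4 ± 12.5 CPM in young libraries (adjusted p = 0.452). The pore-forming Prf1 averaged 109 ± 55.1 CPM in old and 64.6 ± 11.4 CPM in young libraries (adjusted p = 0.299). The old and young libraries overlapped for both genes.

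PD-1 and TOX rose among the inhibitory receptors and exhaustion genes, where 2 of 16 tested were higher and 1 lower. Pdcd1 (chr1:94038305-94052553), the receptor that dampens T cell receptor signals, had 137, 74.5 and 86.0 CPM in old libraries, against 15.7, 13.8 and 17.6 CPM in young libraries. Tox (chr4:6686353-6991557), a nuclear factor that maintains exhausted T cells in mouse chronic infection, had 520, 232 and 416 CPM in old libraries, against 75.9, 67.0 and 81.4 CPM in young libraries. Both separated the ages by a wide gap, with log2 differences of 2.66 ± 0.30 for Pdcd1 (adjusted p = 0.00628) and 2.38 ± 0.30 for Tox (adjusted p = 0.00871). Per 100 counts of CD3 and CD8 genes, Tox had 10.8, 9.80 and 9.98 counts in old libraries, against 4.31, 5.74 and 4.0 in young libraries. These ratios did not overlap, yet neither gene passed on the T cell scale, where the differences were 1.46 ± 0.50 for Pdcd1 (adjusted p = 0.0515) and 1.13 ± 0.45 for Tox (adjusted p = 0.0695).

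Tigit and Lag3, other inhibitory receptor genes, were not called. Tigit averaged 11.9 ± 3.40 CPM in old and 7.08 ± 0.70 CPM in young libraries (adjusted p = 0.420). Lag3 was counted too rarely to be tested, at 1.78 to 9.10 CPM in old libraries and 1.69 to 3.67 CPM in young libraries. Cd244a, a SLAM family receptor shared with NK cells and some myeloid cells, was the member that fell, at 17.1, 18.2 and 21.9 CPM in old libraries, against 56.8, 74.9 and 47.7 CPM in young libraries (log2 difference -1.65 ± 0.28, adjusted p = 0.0319). The median of the list lay 0.34 above that of all genes with TMM and 0.42 above it on the T cell scale. On the latter scale the list median itself was -0.70, with no member higher and 2 lower.

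Of 14 secreted cytokine and chemokine genes 2 rose and none fell with TMM, with a median that lay 0.63 above that of all genes on each scale. On the T cell scale the list median itself was -0.49, with no member higher and 2 lower. Ccl5, the chemokine RANTES that memory CD8 T cells store as mRNA, had 28462, 10637 and 18417 CPM in old libraries, against 4507, 4231 and 4926 CPM in young libraries (log2 difference 2.07 ± 0.35, adjusted p = 0.0319). Penk, which encodes the opioid precursor proenkephalin, had 119, 30.7 and 46.3 CPM in old libraries, against 7.87, 9.86 and 1.47 CPM in young libraries (3.31 ± 0.65, adjusted p = 0.0478). Neither passed on the T cell scale (adjusted p = 0.209 for Ccl5 and 0.0577 for Penk). Interferon gamma (Ifng) averaged 47.0 ± 25.3 CPM in old and 16.5 ± 12.5 CPM in young libraries, with overlapping libraries (adjusted p = 0.287).

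**Figure D2:**
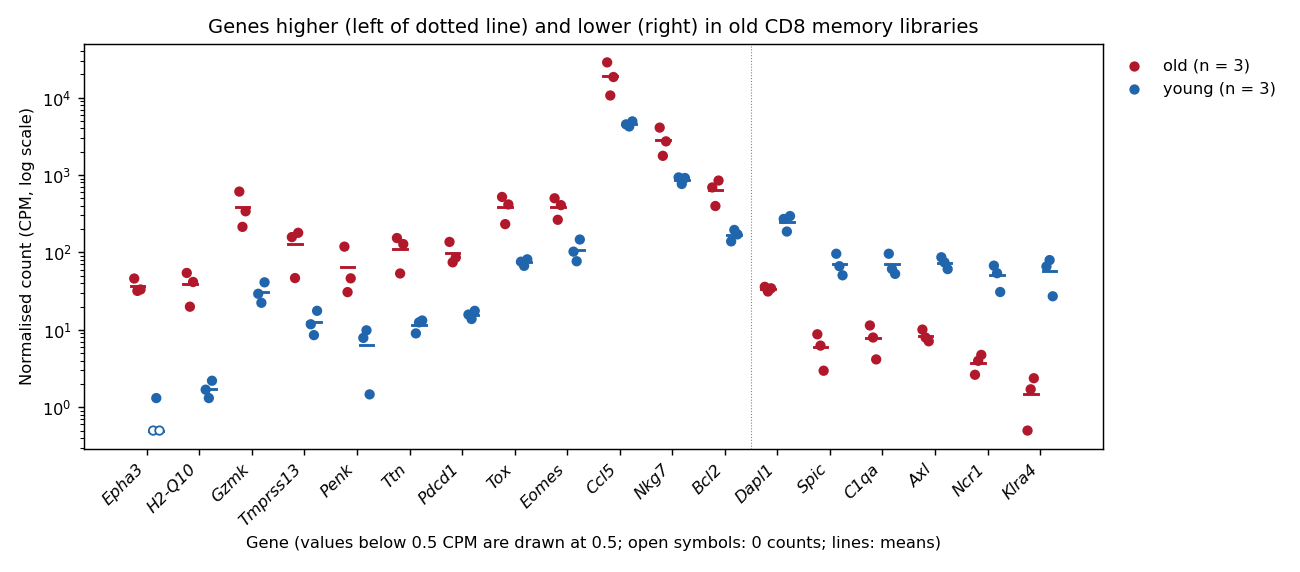
Normalised counts (CPM, log axis) of 18 genes past the threshold in the 3 old (red, left) and 3 young (blue, right) libraries, with points for libraries and lines for means. Genes left of the dotted line, from Epha3 to Bcl2, were higher in each old library than in any young one, and those right of it, from Dapl1 to Klra4, were lower.

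Among 19 effector and memory transcription factors Eomes rose and Zeb2 fell with TMM. Their median lay 0.66 above that of all genes with TMM and 0.59 above it on the T cell scale. On the latter scale their median itself was -0.53, with no member higher and 1 lower. Eomes (chr9:118478212-118486132), the T-box factor of memory CD8 T cells, had 500.2, 264 and 408 CPM in old libraries, against 102, 76.9 and 147 CPM in young libraries. Its log2 difference was 1.85 ± 0.30 (adjusted p = 0.0293) with TMM and 0.68 ± 0.44 (adjusted p = 0.197) on the T cell scale, and the ratios to CD3 and CD8 counts, 9.78 to 11.1 in old and 5.81 to 7.20 in young libraries, did not overlap. Zeb2, a transcriptional repressor of terminal effector cells that NK cells also express, had 43.4, 69.9 and 77.7 CPM in old libraries, against 175, 260.2 and 137 CPM in young libraries (-1.59 ± 0.30, adjusted p = 0.0451). The related T-box factor Tbx21 averaged 62.8 ± 24.3 CPM in old and 43.6 ± 8.49 CPM in young libraries (adjusted p = 0.480).

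Genes of naive and stem-like T cells moved in both directions, with Dapl1 lower and Bcl2 higher among 22 tested. Dapl1 (chr2:59484653-59505020), a gene of resting naive and central memory T cells, had 35.9, 31.3 and 34.4 CPM in old libraries, against 270.4, 186 and 295 CPM in young libraries. Its log2 difference was -2.88 ± 0.23 (adjusted p = 0.00316), and the old libraries lay close together far below the young ones. Per 100 counts of CD3 and CD8 genes there were 0.748, 1.32 and 0.824 Dapl1 counts in old libraries, against 15.4, 15.9 and 14.5 in young libraries. Dapl1 stayed past the threshold when any single library was left out, with a highest adjusted p of 0.0491. Bcl2, which blocks mitochondrial cell death, had 690.3, 397 and 847 CPM in old libraries, against 139, 195 and 171 CPM in young libraries (1.94 ± 0.29, adjusted p = 0.0200), but its ratio to CD3 and CD8 counts overlapped, at 14.4 to 20.3 in old and 7.89 to 16.7 in young libraries (adjusted p = 0.246 on the T cell scale).

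Other genes of this list did not pass with TMM. Ccr7, the receptor that guides T cells into lymph nodes, averaged 61.0 ± 7.83 CPM in old and 130.1 ± 39.8 CPM in young libraries (-1.09 ± 0.27, adjusted p = 0.0838). The TCF family factors Tcf7 and Lef1 overlapped between the ages, with log2 differences of -0.06 ± 0.30 and -0.45 ± 0.27. On the T cell scale Ccr7 (-2.27, adjusted p = 0.0137) and Lef1 (-1.60, 0.0302) fell, and Tcf7 did not pass (-1.24, 0.0577), and Cd44 fell too (-1.73, 0.0412). On that scale 12 of the 22 genes were lower, where 15.6% of all genes tested were lower and the median of all genes was -1.12. The interleukin-7 receptor gene Il7r averaged 681 ± 328 CPM in old and 253 ± 128 CPM in young libraries, with overlap (adjusted p = 0.141).

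**Figure D3:**
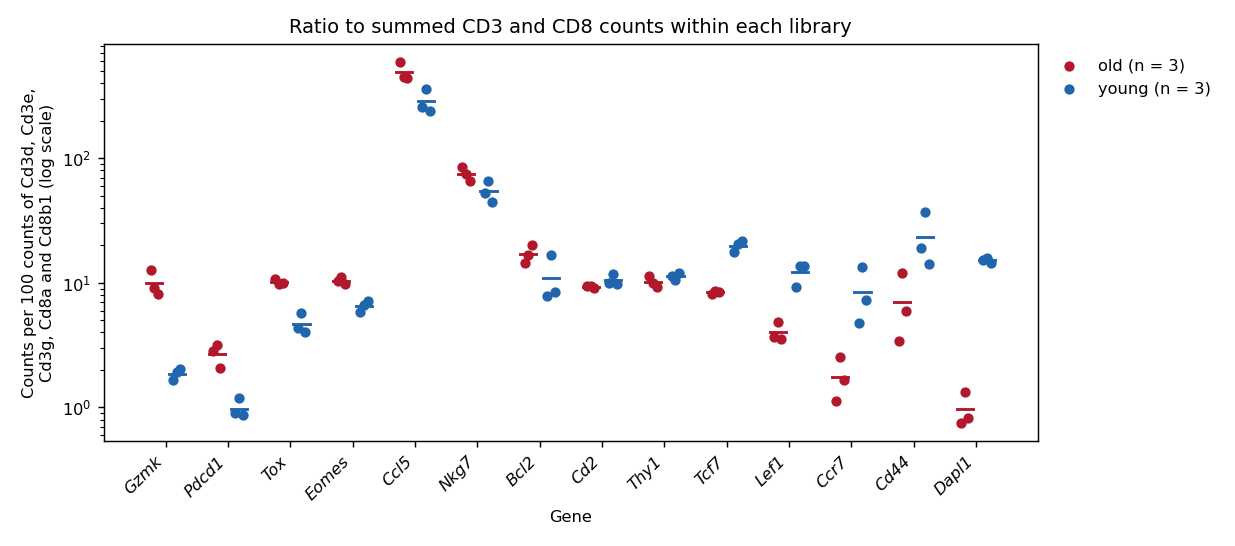
Counts of 14 genes per 100 summed counts of Cd3d, Cd3e, Cd3g, Cd8a and Cd8b1 (log axis) in the 3 old (red, left) and 3 young (blue, right) libraries, with points for libraries and lines for means. Gzmk lay at 8.14 to 12.7 in old and 1.66 to 2.02 in young libraries, Dapl1 at 0.748 to 1.32 in old and 14.5 to 15.9 in young libraries, while Cd2 and Thy1 stood close together at both ages.

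MHC class I genes lay higher in old libraries in 19 of 20 members tested with TMM, and 2 passed. Their median lay 0.70 above that of all genes with TMM and 0.65 above it on the T cell scale. On the latter scale their median itself was -0.47, with 1 member higher and 1 lower. H2-Q10, a class Ib molecule that is secreted, had 54.3, 19.9 and 41.5 CPM in old libraries, against 1.69, 1.31 and 2.20 CPM in young libraries. Its log2 difference was 4.44 ± 0.53 (adjusted p = 0.00788) and passed on the T cell scale as well (3.21, adjusted p = 0.00989), though reads of near-identical H2-Q copies may be shared. Nlrc5, the activator of class I genes, had 375, 270 and 372 CPM in old libraries, against 116, 121 and 173 CPM in young libraries (1.31 ± 0.23, adjusted p = 0.0372, and 0.780 on the T cell scale). The libraries of the ages did not overlap for 18 members that were higher in old and 1 that was lower, while such separation held for 11% of all genes with old higher and 11.4% with old lower. Without old replicate 2, 10 members rose, among them H2-K1 and the peptide transporter gene Tap1, and none fell, where 2.45% of all genes rose. That was the most for any of the 6 single omissions, and no member rose without young replicate 2.

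NK receptors that some CD8 T cells share had 3 of 20 members lower and none higher, with a median of -1.67. Ncr1, the activating receptor NKp46, had 2.63, 3.98 and 4.74 CPM in old libraries, against 67.4, 53.9 and 30.8 CPM in young libraries. Fcer1g, the signalling adaptor of NK and myeloid cells, averaged 190.4 ± 60.1 CPM in old and 866 ± 333 CPM in young libraries, and the lectin-like receptor gene Klri2 averaged 11.1 ± 5.20 CPM in old and 65.1 ± 20.9 CPM in young libraries. Their log2 differences were -3.75, -2.19 and -2.55 (adjusted p = 0.00628, 0.0207 and 0.0245). Klrg1, a receptor of senescent and effector T cells, was not lower, with 193 ± 84.6 CPM in old and 106 ± 46.3 CPM in young libraries (0.86 ± 0.38, adjusted p = 0.287).

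Klra4 and Klra8, which encode the activating NK receptors Ly49D and Ly49H, showed the most negative differences among named genes. Klra4 had 0.438, 1.71 and 2.37 CPM in old libraries, against 65.8, 79.5 and 27.1 CPM in young libraries (log2 difference -5.27 ± 0.60, adjusted p = 0.00628). Klra8 had 1.31, 0 and 4.15 CPM in old libraries, against 63.5, 95.3 and 36.7 CPM in young libraries (-5.15 ± 0.69, adjusted p = 0.0122), and both genes have near-identical relatives whose reads may be shared. With Ncr1 and Fcer1g they were the 4 of 8 tested NK cell markers that fell, where the median was -3.06 and none rose.

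Of the 12 macrophage and monocyte markers 8 fell and none rose, with a median of -2.59. C1qa, a chain of complement C1q made by macrophages, had 11.4, 7.96 and 4.15 CPM in old libraries, against 96.1, 61.1 and 52.8 CPM in young libraries. Csf1r, the receptor on which macrophages depend, had 23.2, 76.8 and 28.5 CPM in old libraries, against 237, 335 and 224 CPM in young libraries. Neither gene overlapped between the ages (adjusted p = 0.0101 for C1qa and 0.0257 for Csf1r). The iron exporter ferroportin (Slc40a1), the adhesion molecule Vcam1 and the lysosomal protein Cd68 also fell, with log2 differences of -3.16, -2.86 and -1.49.

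Other named genes that fell stood outside these lists. Spic, the transcription factor of splenic red pulp macrophages, had 8.76, 6.25 and 2.97 CPM in old libraries, against 96.1, 66.4 and 50.6 CPM in young libraries (log2 difference -3.52 ± 0.42, adjusted p = 0.00769). Axl, a receptor for apoptotic cells, had 10.1, 7.96 and 7.12 CPM in old libraries, against 86.6, 74.3 and 60.9 CPM in young libraries (-3.12 ± 0.29, adjusted p = 0.00459). The old libraries lay below the young ones throughout for both. The growth factor gene Igf1 (-3.61), the complement gene C6 (-3.52), lipoprotein lipase (Lpl, -3.48, also counted at 222 ± 7.47 CPM in old and 216 ± 18.5 CPM in young naive cells), the prostaglandin-degrading enzyme gene Hpgd (-3.43) and the mannose receptor gene Mrc1 (-3.16) fell as well. Tmem108 and Zfyve9 also fell, with differences of -3.31 and -2.95. The cytokine receptor gene Il6ra averaged 39.2 ± 19.7 CPM in old and 146 ± 22.8 CPM in young libraries, and the glycosyltransferase gene Gcnt1, which builds selectin ligands, averaged 11.3 ± 3.01 CPM in old and 41.2 ± 8.65 CPM in young libraries (adjusted p = 0.0451 and 0.0372).

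Further named genes were higher in old libraries, and Epha3 had the largest difference of all genes that were higher. Epha3 (chr16:63543534-63864175), an ephrin receptor tyrosine kinase, had 46.0, 31.8 and 33.2 CPM in old libraries, against 0, 1.31 and 0 CPM in young libraries. It had nearly no counts in young cells, and its log2 difference of 6.21 ± 0.69 (adjusted p = 0.00628) passed on the T cell scale as well (5.10, adjusted p = 0.00639). Tmprss13, a membrane-bound serine protease, had 158, 46.6 and 179 CPM in old libraries, against 11.8, 8.54 and 17.6 CPM in young libraries (3.34 ± 0.51, adjusted p = 0.0207). Ttn, the gene of the muscle protein titin, had 153, 53.4 and 128 CPM in old libraries, against 8.99, 12.5 and 13.2 CPM in young libraries (3.28 ± 0.42, adjusted p = 0.00949). Old replicate 2 was the lowest old library for Tmprss13 and Ttn, and still lay above every young library, and both genes passed on the T cell scale with adjusted p of 0.0197 and 0.0248. The immediate-early gene Ier3 (2.79), the scaffold gene Sdcbp2 (2.74), the adhesion gene Igsf9b (2.47), the serine protease inhibitor gene Serpina3g (2.42), Lratd1 (2.40) and the galectin-like Lgalsl (2.29) were also higher with TMM, and none of these 6 passed on the T cell scale.

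The remaining lists held few or no calls with TMM. Proliferation genes had a negative difference in all 32 tested, with a median of -0.83 and none past the threshold, but 18 were lower without old replicate 2, where 5.39% of all genes were lower, and 13 on the T cell scale, where 15.6% were. No other single omission gave a call in that list. Mki67, the proliferation marker Ki-67, had 65.7, 255 and 58.1 CPM in old libraries, against 231, 413 and 678 CPM in young libraries (adjusted p = 0.154). Only old replicate 2 reached into the range of the young libraries, and the erythroid markers were also highest there among old libraries. T cell receptor signalling and costimulation genes were positive in 23 of 27 with TMM, with a median 0.58 above that of all genes on each scale. None passed the threshold with TMM. On the T cell scale their median itself was -0.54, with no member higher and 2 lower. Without old replicate 2, 9 were higher, where 2.45% of all genes were, and none was higher in any other single omission. Chemokine receptor and homing genes had 1 of 23 lower (Gcnt1), cytokine receptors 1 of 21 lower (Il6ra), and the chemokine receptor genes Cxcr3 and Cx3cr1 did not pass (log2 differences 1.36 and -1.20, adjusted p = 0.0953 and 0.123). The immediate-early and AP-1 list had 1 of 22 higher (Ier3), and the BCL2 family and death receptors 1 of 20 (Bcl2). No member passed among 32 interferon-stimulated, 15 glycolysis, 43 oxidative phosphorylation, 19 unfolded protein response, 16 cholesterol synthesis and 6 DNA methylation genes, whose medians ran from -0.57 to 0.19. On the T cell scale 11 of the interferon-stimulated, 5 of the cholesterol synthesis, 4 of the DNA methylation and 1 of the oxidative phosphorylation genes were lower. Without old replicate 2, 3 of 36 interferon-stimulated genes were lower, and without young replicate 2 none was.

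**Figure D4:**
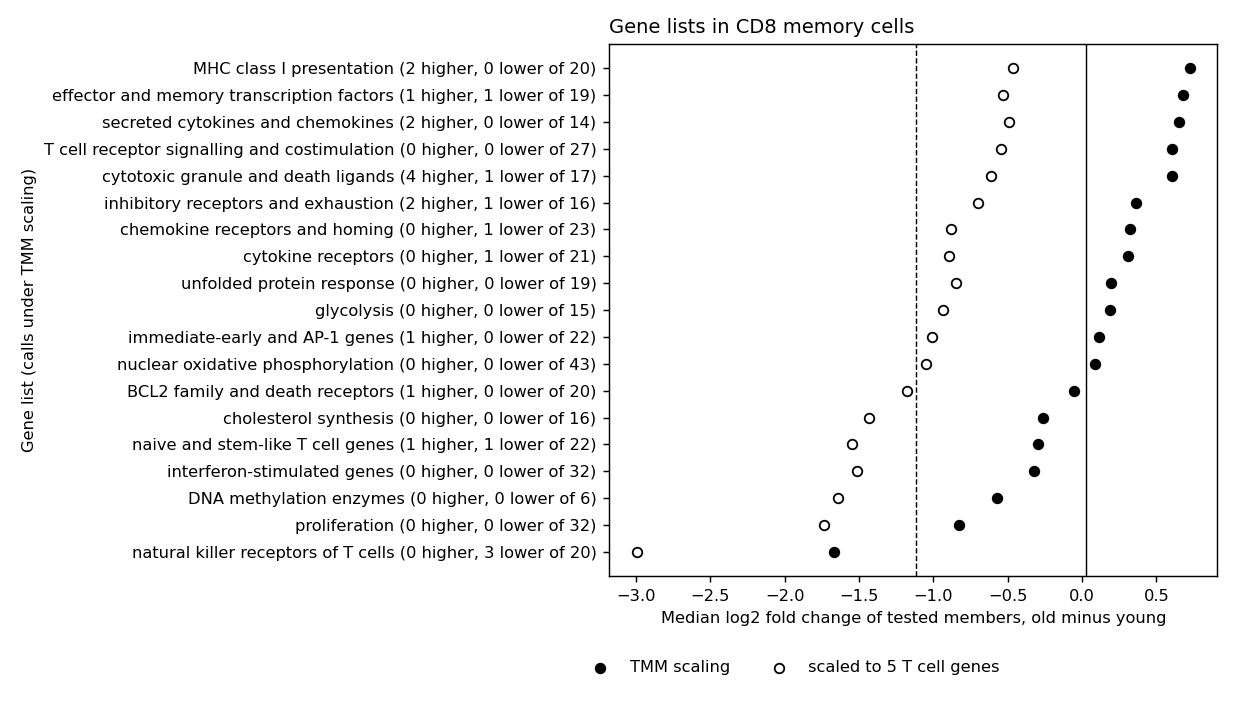
Median log2 difference, old minus young, of the tested members of 19 gene lists under TMM (filled) and on the T cell scale (open), with the medians of all genes as a solid line (0.02) and a dashed line (-1.12). MHC class I genes had the highest median and NK receptors the lowest on each scale.

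The age difference was next compared with that in 3 other spleen T cell sorts, CD8 virtual memory (5 old and 5 young libraries), CD8 naive (3 old and 4 young) and CD4 memory cells (5 old and 5 young). Values for these sorts, and contrasts with them, used TMM alone. Of the 49 genes higher in old CD8 memory cells, 36 of the 48 tested in CD8 naive cells were also higher in old ones there (75% of those tested and 6.05% of all genes higher there). The same held for 17 of 38 in virtual memory cells (44.7% and 6.12%) and 16 of 46 in CD4 memory cells (34.8% and 10.5%), and 1 of the 49 was lower in old naive cells. The share of tested genes called higher was 5.15% in naive, 2.69% in virtual memory and 1.46% in CD4 memory cells. Of the 68 genes lower in old CD8 memory cells, 7 of the 38 tested in naive cells were lower there (18.4% and 2.14%), 4 of 32 in virtual memory cells (12.5% and 3.36%) and 15 of 51 in CD4 memory cells (29.4% and 8.67%), against 2.83%, 1.15% and 1.66% of all genes tested. Another 3 were higher in old naive cells and 1 in old virtual memory cells. Macrophage markers summed to 891 to 2313 CPM in old and 794 to 1001 CPM in young virtual memory libraries, and to 186 to 425 CPM in old and 122 to 178 CPM in young naive libraries, below every young CD8 memory library. In CD4 memory libraries they overlapped, at 178 to 1107 CPM in old and 456 to 1209 CPM in young ones. NK markers there summed to 60.8 to 259 CPM in old and 267 to 550 CPM in young libraries. Dendritic cell markers summed to 713 to 2513 CPM in old and 2893 to 9003 CPM in young ones. Erythroid and neutrophil markers had higher medians in old CD4 memory libraries. In virtual memory libraries neutrophil markers summed to 9251 to 15612 CPM in old and 8568 to 10679 CPM in young ones. These sums lay above every CD8 memory library other than old replicate 2. The part of neutrophil RNA in the contrasts with virtual memory cells was not tested.

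Granzyme K rose in each of the 4 sorts. It averaged 34.6 ± 31.9 CPM in old and 2.09 ± 0.95 CPM in young virtual memory cells, 578 ± 131 CPM in old and 11 ± 3.96 CPM in young naive cells, and 246 ± 93.9 CPM in old and 27.8 ± 5.36 CPM in young CD4 memory cells. The age difference of CD8 memory cells minus that of naive cells, an interaction term, was -2.07 ± 0.49 on the log2 scale (adjusted p = 0.0289, missed in 6 of the 13 fits without a single library, with a highest p of 0.0772), and the same terms for virtual memory (-0.42 ± 0.81) and CD4 memory cells (0.55 ± 0.46) did not pass. Dapl1 fell in each sort, with log2 differences of -2.61 in virtual memory, -1.89 in naive and -1.86 in CD4 memory cells, and no contrast with CD8 memory cells passed.

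Eomes and PD-1 differed between sorts. Eomes averaged 230 ± 28.5 CPM in old and 190 ± 49.0 CPM in young virtual memory cells, and its age difference was larger in CD8 memory cells by 1.59 ± 0.35 (adjusted p = 0.0264, missed in 4 of the 16 fits without a single library, with a highest p of 0.107). Against naive cells, where Eomes averaged 617 ± 88.2 CPM in old and 45.7 ± 14.2 CPM in young libraries, it was smaller (interaction -1.91 ± 0.39, adjusted p = 0.0112). Pdcd1 averaged 140 ± 37.2 CPM in old and 3.53 ± 1.36 CPM in young naive cells, and the CD8 memory difference was smaller (interaction -2.71 ± 0.43, adjusted p = 0.00175). Ccl5 showed the same order, with 38418 ± 6559 CPM in old and 476 ± 25.5 CPM in young naive cells (interaction -4.25 ± 0.35, adjusted p = 5.27e-06). Bcl2 went the other way, averaging 379 ± 40.7 CPM in old and 338 ± 25.9 CPM in young naive cells, so that its rise with TMM was larger in CD8 memory cells (1.79 ± 0.31, adjusted p = 0.00344). The CD8 T cell markers summed to 6971 to 8221 CPM in old and 6301 to 8096 CPM in young naive libraries. Those ranges overlapped, while the sums in CD8 memory libraries were higher in old ones without overlap. The part of that shift in these contrasts was not tested. With CPM scaled within each sort, old naive libraries held more Eomes, Pdcd1 and Ccl5 on average than old CD8 memory libraries (391, 99.0 and 19172 CPM). The same held for Gzmk, at 388 CPM in old CD8 memory libraries. Eomes and Ccl5 are genes of memory CD8 T cells, so these levels go against the name naive. Which cells of the old naive sort held these RNAs was not tested.

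**Figure D5:**
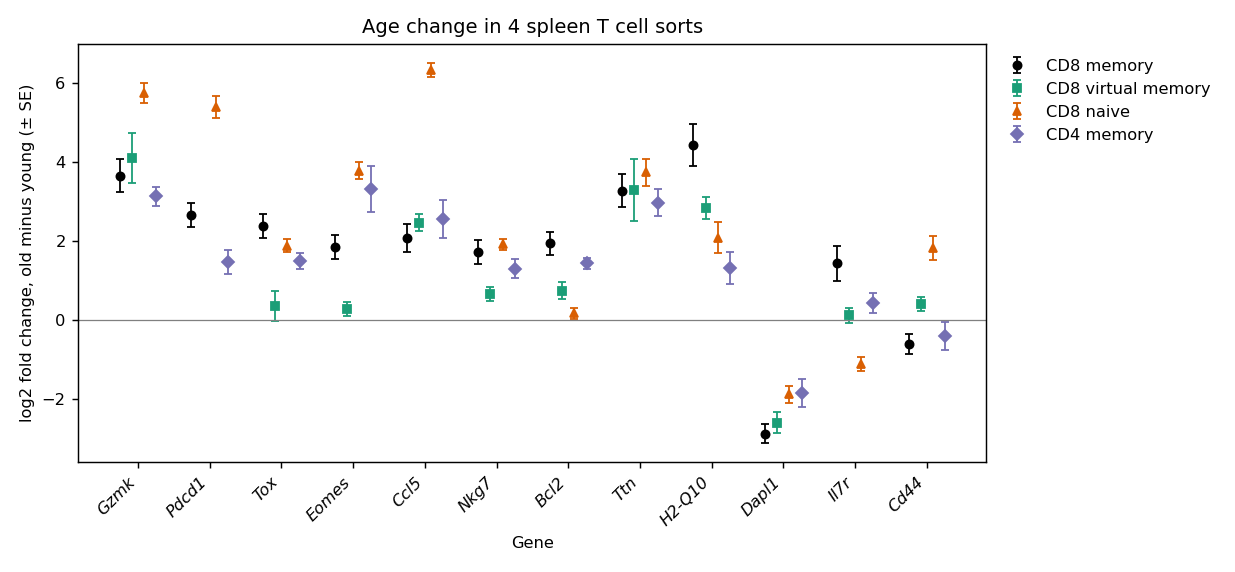
Log2 difference, old minus young, with its SE for 12 genes in CD8 memory (circles), CD8 virtual memory (squares), CD8 naive (triangles) and CD4 memory cells (diamonds), where a gene too low to be tested has no symbol. Gzmk and Dapl1 moved the same way in the 4 sorts, while Eomes, Ccl5 and Pdcd1 had their largest differences in naive cells and Bcl2 its smallest.

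Against virtual memory cells the CD8 memory difference was higher for 54 genes (0.438% of 12330) and lower for 207 (1.68%). Against naive cells it was higher for 91 (0.725%) and lower for 280 (2.23%), and against CD4 memory cells for 6 (0.0488%) and 18 (0.146%). Cd8a itself was among the 6 higher against CD4 memory cells, with 455 ± 146 CPM in old and 198 ± 69.9 CPM in young CD8 memory cells, and 1.31 ± 1.08 CPM in old and 7.49 ± 6.22 CPM in young CD4 memory cells, but it missed the threshold in 13 of the 16 fits without a single library. Tmprss13 rose in CD8 memory but averaged 27.4 ± 10.5 CPM in old and 53.4 ± 16.5 CPM in young CD4 memory cells (interaction 4.33 ± 0.59, adjusted p = 0.00339). Id3, an inhibitor of E proteins in memory precursors, averaged 45.9 ± 19.3 CPM in old and 57.3 ± 4.47 CPM in young CD8 memory cells, and 9.82 ± 7.12 CPM in old and 131 ± 46.1 CPM in young virtual memory cells (interaction 3.45 ± 0.59, adjusted p = 0.00715). The lower side held the erythroid genes Hba-a1 and Nfe2. The globin gene Hba-a1 averaged 803 ± 599 CPM in old and 4253 ± 1627 CPM in young CD8 memory cells, and 499 ± 263 CPM in old and 148 ± 72.4 CPM in young CD4 memory cells (interaction -4.15 ± 0.70, adjusted p = 0.0214, missed in 5 of the 16 fits without a single library). Erythroid markers summed to 1826 to 6679 CPM in old and 577 to 1829 CPM in young CD4 memory libraries.

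The T cell receptor beta V segments gave a coarse view of diversity, from 209 to 230 counts in old and 122 to 175 counts in young libraries. The inverse Simpson index, the effective number of segments, was 15.6, 15.1 and 14.2 in old libraries, against 14.9, 14.8 and 11 in young libraries. Its means of 14.9 ± 0.72 in old and 13.6 ± 2.26 in young libraries (SD, n = 3 each) were not distinguished (two-sided exact permutation test, p = 0.5, where the smallest p possible is 0.1). Trbv12-2 was the most counted segment in 5 of the 6 libraries, with 10.5% to 13.7% of segment counts in old libraries and 10.9% and 21.3% in young libraries (exact 95% binomial intervals 6.72% to 19.1% and 6.66% to 29.6%, covering counting error alone). Trbv3 led in young replicate 3, at 10.4% (5.65% to 17.1%).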

How the data were processed

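RNA was sequenced from sorted cells with sample indices and unique molecular identifiers, per the labels' protocols. No source used here says whether duplicate reads were removed by them. The labels' protocols name sabre 80faf94, and the submitters' processing notes name STAR, featureCounts 2.0.1, GRCm38.p6 and mm10. The authors deposited whole-number counts per gene with no normalization, in a table of 55484 genes and 170 libraries. Counting by strand is not given, so overlapping and near-identical genes are uncertain.

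Groups follow the sample titles. Among the 6 CD8 memory libraries no replicate pair was identical, and their counts differed beyond sampling noise (chi-square over its degrees of freedom 7.44 or more). Xist stood at 216 to 307 CPM in old and 293 to 348 CPM in young libraries. Old was compared with young by edgeR 4.0.16 (quasi-likelihood test, TMM) in R 4.3.3 after filterByExpr (minimum count 10, minimum total 15), with Benjamini-Hochberg adjustment over all genes tested and a threshold of 0.05. Other sorts were fitted alike, and differences of age differences as an interaction term within one fit of both sorts, whose CPM differ slightly from those of a single sort. Library totals limit the precision of low genes.

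Named genes were up to 15 highest and 15 lowest past the threshold whose libraries did not overlap and whose higher mean reached 20 CPM, list members past the threshold (up to 6 a list), a set of landmark genes whatever their value, and up to 4 per direction in each interaction. Xist, chromosome Y genes, unnamed models, pseudogenes, antisense genes and receptor segments were left out of the first rule, and a few genes that the rules name are not reported here. The members and lists were chosen with earlier results of these data known. Promoters are RefSeq's, and coordinates are GENCODE M21's. Alternatives were RLE size factors, no filter, DESeq2 1.42.0, all 5 spleen T cell sorts in one fit, a block for the replicate number, each library left out in turn and, chosen after seeing the data, scaling to 5 T cell genes.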

Additional observations from a re-analysis of the deposited data

Results flagged for a closer look

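Differences between the age difference of CD8 memory cells and that of another sort are log2 interaction terms from edgeR's quasi-likelihood test, each with an adjusted p under 0.05. Of the 23 named here, 6 stayed past the threshold without each library in turn (Id3, Styk1, Pced1b, Chst2, Gzma and Tmprss13), and 17 missed it without at least 1 library. Thap3 missed it in 14 of 16 such fits, Cd8a in 13, Sowaha in 12 (highest adjusted p 0.222) and Trim10, Sh2d1b1 and Nfe2 in 10 each, and Ehd2 in 11 of 13. Where a group had no counts, the fitted value depends on the prior count and is no measure of size.

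Against virtual memory cells the 4 highest were Trim30c (5.98), Id3 (3.45), the chemokine receptor gene Cxcr5 (2.87) and Lratd1 (2.54). Trim30c ranged from 4.33 to 454 CPM among the old CD8 memory libraries and from 1.66 to 7.07 CPM among the young ones. Cxcr5 averaged 51.2 ± 28.5 CPM in old and 19.1 ± 6.04 CPM in young CD8 memory cells, and 13 ± 5.42 CPM in old and 35.4 ± 14.7 CPM in young virtual memory cells. The 4 lowest were Sowaha (-6.56), Styk1 (-6.25), Trim10 (-6.24) and Sh2d1b1 (-6.24). Styk1, a kinase-like gene of NK cells, averaged 1.58 ± 0.98 CPM in old and 10.3 ± 5.55 CPM in young CD8 memory cells, and 25.8 ± 27.7 CPM in old and 2.05 ± 1.36 CPM in young virtual memory cells.

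Against naive cells the highest were Trim30c (8.24), Ehd2 (5.60) and Pced1b (3.65), and the lowest Slc38a5 (-7.60), Pdzk1ip1 (-6.88), Chst2 (-6.63) and Gzma (-6.53). Gzma averaged 154 ± 79.5 CPM in old and 806 ± 403 CPM in young CD8 memory cells, and 130.1 ± 38.8 CPM in old and 7.56 ± 4.01 CPM in young naive cells, and NK markers summed to 143 to 193 CPM in old and 14.9 to 34.4 CPM in young naive libraries. Ehd2 had no count in young CD8 memory libraries, and Slc38a5 and Pdzk1ip1 none in young naive libraries. Pced1b averaged 404 ± 265 CPM in old and 138 ± 115 CPM in young CD8 memory cells, and 113 ± 42.9 CPM in old and 477 ± 181 CPM in young naive cells.

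Against CD4 memory cells the highest were Tmprss13 (4.33), Cd8a (3.40), Ifit1bl1 (1.78) and Thap3 (1.64), and the lowest Ypel4 (-5.97), Axl (-4.44), Nfe2 (-4.31) and Hba-a1 (-4.15). Axl averaged 8.78 ± 1.65 CPM in old and 77.9 ± 14.2 CPM in young CD8 memory cells, and 50.4 ± 29.7 CPM in old and 20.5 ± 12.7 CPM in young CD4 memory cells.

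Single libraries of the other sorts lay far from the rest of their group in 15 of 82 groups of 4 or 5 values by Dixon's criterion. Its rate of about 1 in 20 holds for independent groups of normal values. These CPM were not logged and the groups share libraries, so the number of flags cannot be set against that rate. Old virtual memory replicate 4 was the highest for Sowaha (8.07 CPM), Trim10 (17.5), Sh2d1b1 (5.38), Pdcd1 (43.7) and Penk (46.4), old replicate 2 for Styk1 (73.1) and old replicate 5 for Bcl2 (1461). Among young virtual memory libraries replicate 3 was the highest for Sowaha (0.444 CPM) and Styk1 (4.44) and replicate 1 for Sh2d1b1 (0.152). The other young libraries had no count of Sowaha or Sh2d1b1, so any read is flagged there, which leaves 13 flags in groups with other counts. In naive cells young replicate 1 stood apart for Trim30c (248 CPM) and young replicate 4 for Pdcd1 (5.56). In CD4 memory cells old replicate 5 stood apart for Tox (768 CPM), old replicate 4 for Dapl1 (82.0) and young replicate 3 for Eomes (29.6).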

How the results depend on the processing

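RLE size factors left the counts of CD8 memory calls at 49 higher and 70 lower. They moved without a filter on low counts (367 higher, 659 lower, and 102 list genes in place of 22), with DESeq2 (188, 386 and 70), in one fit with the other spleen T cell sorts (270, 257 and 63) and on the T cell scale (11, 1659 and 90). Leaving out each library gave 1 to 274 higher, 2 to 604 lower and 1 to 94 list genes. Genes whose age difference differed from virtual memory, naive and CD4 memory cells numbered 261, 371 and 24, against 856, 871 and 368 without a filter and 534, 623 and 153 with DESeq2. Without single libraries they ran from 52 to 737, 225 to 986 and 2 to 176, each lowest without old CD8 memory replicate 3 and highest without old replicate 2. Age calls within virtual memory (397) and CD4 memory cells (325) became 900 and 839 without a filter and 647 and 567 with DESeq2. The difference in segment evenness (1.37) was 4.85 with at least 10 counts a segment (exact permutation p = 0.1), 0.0619 to 2.04 without single libraries, and -2.50 percentage points for the share of the most counted segment (p = 0.9). Whether replicate numbers pair the ages cannot be settled here, because only 2 numbers occur at both ages. Deviations of same-numbered old and young libraries correlated at -0.0272 and 0.0245. Between CD8 memory and the same-numbered library of another sort they correlated at -0.166 to 0.113 for virtual memory. The range was -0.0322 to 0.142 for naive and -0.251 to 0.144 for CD4 memory cells. The contrasts between sorts took all libraries as unpaired. With the replicate number as a block, 2 genes were higher and 10 lower, 8 of them shared with the 117 above, 2 list genes passed, and the contrasts held 53 and 4 genes for virtual memory and CD4 memory cells. No named call changed direction in any of these settings. Why the counts moved was not tested. Depth limits the lowest genes, such as Lag3.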

Other observations

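Receptor segments and constant genes were left out of the naming rule, and those below were chosen after their values were seen. Trgc2, a constant gene of the gamma chain of the T cell receptor, had 303, 160.3 and 165 CPM in old libraries, against 21.4, 21.0 and 33.7 CPM in young libraries (log2 difference 3.05 ± 0.33, adjusted p = 0.00628). Trgv2, a gamma variable segment, had 52.1, 39.2 and 41.5 CPM in old libraries, against 1.12, 1.31 and 2.20 CPM in young libraries (4.81 ± 0.41, adjusted p = 0.00316). Both rose, and both also passed on the T cell scale (adjusted p = 0.0214 and 0.00628). Other gamma chain genes did not pass, with log2 differences of 1.91 ± 0.40 for Trgc4 (adjusted p = 0.0600), -0.52 ± 0.65 for Trgc1 (0.753) and 0.40 ± 0.80 for Trgv1 (0.859). The delta chain gene Trdc did not pass either, at 10.5, 0 and 2.97 CPM in old libraries, against 34.3, 19.7 and 7.33 CPM in young libraries (adjusted p = 0.265).

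Other genes that rose were also chosen after their values were seen. Rab27a, which docks cytotoxic granules at the membrane, had 220, 172 and 257 CPM in old libraries, against 88.8, 53.9 and 62.3 CPM in young libraries (log2 difference 1.66 ± 0.25, adjusted p = 0.0200). Nt5e, the ectoenzyme CD73 that makes adenosine, had 50.4, 34.7 and 42.1 CPM in old libraries, against 13.5, 13.8 and 11.7 CPM in young libraries (1.70 ± 0.29, adjusted p = 0.0339). Gimap7, a GTPase gene of lymphocytes, averaged 337 ± 104 CPM in old and 108 ± 36.8 CPM in young libraries (adjusted p = 0.0459). Old and young libraries did not overlap for these genes, and the 3 did not pass on the T cell scale (adjusted p = 0.340, 0.427 and 0.331).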
